A study of Mus musculus with 4 samples.

Results

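The loci described here are the 8 mouse genes of the miR-10 and miR-181 families, Mir10a, Mir10b, Mir181a-1, Mir181a-2, Mir181b-1, Mir181b-2, Mir181c and Mir181d. They were taken by gene symbol from a table of 47069 gene IDs that held 1174 loci with a microRNA symbol. The families were chosen by their counts in the 4 libraries, which were known at that point, so their differences between the groups are given as a description, and nothing is read from a test of them. Exosome RNA came from the medium of pieces of Lewis lung carcinoma tumours, an established mouse lung carcinoma line grown under the skin of C57BL/6 mice for 3 weeks. The pieces were kept for 12 h without serum, and the vesicles were collected by precipitation after passage through a 0.2-μm filter. Tumour RNA came from the primary tumours themselves, in the same strain and with the same inoculated cells. There were 2 exosome libraries and 2 tumour libraries. Whether replicates came from separate animals is not stated, so the spread between them may be technical.

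MicroRNAs are short RNAs cut from hairpin precursors by Drosha and Dicer. Loaded into an Argonaute protein, they pair through their seed, bases 2 to 8, with messenger RNAs and lower their output. The miR-10 genes lie in the Hox clusters, and miR-10b is known for promoting invasion in breast cancer cells. The miR-181 genes lie in pairs, and miR-181a is known for raising the sensitivity of mouse T cells to antigen.

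The mature sequences show which loci can be told apart by a short read. They are the 5p arms from RefSeq on GRCm38.p6, with the seed in capitals.
miR-10a-5p: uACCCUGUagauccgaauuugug
miR-10b-5p: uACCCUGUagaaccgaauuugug
miR-181a-5p: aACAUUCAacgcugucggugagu
miR-181c-5p: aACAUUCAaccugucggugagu
miR-181b-5p: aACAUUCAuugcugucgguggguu
miR-181d-5p: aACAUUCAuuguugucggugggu
miR-99b-5p, a relative of miR-10: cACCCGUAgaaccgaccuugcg

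Counted from the 5′ end, miR-10a and miR-10b differ by U12A. Their seed ACCCUGU occurred at no other locus among 1738 mature entries of the table, and the seed ACAUUCA occurred at the 6 miR-181 loci and at no other. From miR-181a to miR-181b the first 23 bases differ by A9U, C10U and A21G, and from miR-181b to miR-181d by C12U. Mir181a-1 and Mir181a-2 give the same 5p sequence. Their hairpins are shown because they limit how counts can be assigned, with the mature 5p arm in capitals.
Mir181a-1: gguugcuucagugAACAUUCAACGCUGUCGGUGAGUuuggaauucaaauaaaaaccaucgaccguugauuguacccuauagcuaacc
Mir181a-2: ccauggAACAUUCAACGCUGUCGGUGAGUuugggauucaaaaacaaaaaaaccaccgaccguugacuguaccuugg
The longest run that these hairpins share is 28 bases, which covers the whole mature arm. Mir181b-1 and Mir181b-2 share a run of 26 bases and also 1 mature 5p sequence. The longest run shared by Mir10a and Mir10b is 15 bases, which is shorter than a mature arm. Their 5p arms differ by U12A alone, so their reads are separated only as far as that base is matched exactly. How the authors treated reads with several matches is not given in the sources used here, so the split between Mir181a-1 and Mir181a-2, and between the Mir181b copies, is uncertain. Counts are per locus and do not separate the 5p from the 3p arm.

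The exosome libraries held 305751 and 217201 counts in all, against 14543691 and 10849811 in tumour, so that 1 count was worth 3.27 and 4.60 CPM, the usual count scaled to the library total, in exosomes, against 0.0688 and 0.0922 CPM in tumour. Loci with a microRNA symbol took 0.569% and 1.12% of all exosome counts, against 0.0885% and 0.0797% of tumour counts. Among carcinoma and epithelial markers, Epcam, Krt19 and Cdh1 were at 0 in all 4 libraries, and the 5 markers summed to 1 and 1 counts (3.27 and 4.60 CPM) in exosomes against 13 and 4 counts (0.894 and 0.369 CPM) in tumour. The 5 fibroblast and pericyte markers summed to 78.5 and 101 CPM in exosomes against 9.42 and 7.37 in tumour, the 5 neutrophil markers to 55.6 and 50.6 CPM against 4.95 and 2.03, the 5 macrophage and monocyte markers to 6.54 and 36.8 CPM against 3.92 and 3.50, and the 5 endothelial markers to 16.4 and 18.4 CPM against 1.10 and 0.737. The 4 B cell markers had 1 and 1 counts in exosomes against 0 and 2 in tumour, and the 5 T and natural killer cell markers had 1 and 0 counts in exosomes and none in tumour. These CPM sums rest on library totals. On that scale the middle one of 1442 tested genes stood 2.75 higher in exosomes in log2 terms. In the edgeR fit described below, no B, T or natural killer cell marker had enough counts to be tested. With TMM scaling the tested markers had a log2 median of −0.07 for carcinoma (1 gene) and 0.05 for macrophages (2 genes). It was 1.18 for fibroblasts and 1.58 for neutrophils (2 genes each), and 1.53 for endothelium (1 gene). None of these tested markers was called. The 5 erythroid markers summed to 268 and 483 CPM in exosomes against 114 and 81.2 in tumour, but the direction of the globin genes Hba-a1 and Hba-a2 turned with the scaling. It was negative in the fit with TMM scaling, at −1.08 and −1.04 on the log2 scale (edgeR adjusted p = 0.00928 for each), and positive with library totals, at 1.72 and 1.74. The part of these cells in the microRNA values was not tested. In the bulk tumour RNA, fewer cells of a type and less RNA per cell cannot be told apart. The exosome libraries come from filtered medium, so a marker there is not a measure of cells in the sample.

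Of the 8 loci, 6 had a count in at least 1 library and 5 had a count in all 4. Each of those 5 stood higher in both exosome libraries than in either tumour library in CPM. On this scale most tested genes were higher in exosomes. With library totals, 920 of 1442 genes were called higher in the edgeR fit described below, as were 32 of 38 other microRNA loci. Nothing is therefore read from the count of 5. Mir10b led in every library, and Mir181a-1 came second among the 8. Intervals below are exact binomial 95% intervals and, like the floor of 3 counts, cover counting error only, since the reads were amplified without molecular identifiers.

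Mir10b (ENSMUSG00000065500, GRCm38, chromosome 2, 74726070 to 74726137, plus strand, in introns of the Hox genes Hoxd3 and Hoxd4) had 636 and 1147 counts in exosomes against 630 and 404 in tumour. In CPM these were 2080 (1922 to 2248) and 5281 (4980 to 5595) in exosomes, against 43.3 (40.0 to 46.8) and 37.2 (33.7 to 41.1) in tumour. The exosome replicates differed by 2.54 times, which is beyond their counting intervals, and the tumour replicates by 1.16 times. The groups did not overlap, and the lowest exosome value was 48.0 times the highest tumour value. The mean was 3680 ± 2263 CPM in exosomes and 40.3 ± 4.30 CPM in tumour (SD, n = 2 each), a ratio of 91.4.

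Mir10a (ENSMUSG00000065519, chromosome 11, 96317165 to 96317274, plus strand, overlapping no other annotated gene) had 114 and 104 counts in exosomes against 60 and 60 in tumour. Its level was 373 and 479 CPM in exosomes, against 4.13 and 5.53 CPM in tumour. The replicates of each group lay close together, and the ratio of the means, 425.8 ± 74.9 CPM in exosomes to 4.83 ± 0.993 CPM in tumour, was 88.2.

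Mir181a-1 (ENSMUSG00000065565, chromosome 1, 137966455 to 137966541, plus strand, in an exon of the long noncoding RNA gene A430106G13Rik) had 324 and 291 counts in exosomes against 90 and 94 in tumour. This came to 1060 (947.5 to 1182) and 1340 (1190.0 to 1503) CPM in exosomes, against 6.19 and 8.66 CPM in tumour. The 4 values fell into well separated pairs, with the lowest exosome value 122 times the highest tumour value. Its mean of 1200.0 ± 198 CPM in exosomes was 162 times its mean of 7.43 ± 1.75 CPM in tumour, the largest such ratio of the 5 loci.

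Mir181a-2 (ENSMUSG00000065423, chromosome 2, 38852735 to 38852810, plus strand, in an intron of Nr6a1 on the opposite strand) had 20 and 56 counts in exosomes against 18 and 15 in tumour. The level was 65.4 (40.0 to 101) and 258 (194.8 to 335) CPM in exosomes, against 1.24 and 1.38 CPM in tumour. Like Mir10b, it was higher in exosome replicate 2, here by 3.94 times, while Mir10a and Mir181a-1 differed by 1.28 and 1.26 times between the same libraries. Summed over both Mir181a loci, which removes the uncertain split, the log2 difference was 4.48 with the scaling described below.

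Mir181c (ENSMUSG00000065483, chromosome 8, 84178873 to 84178961, minus strand, in an intron of Nanos3) was scarce, with 9 and 4 counts in exosomes against 8 and 5 in tumour. Its 29.4 (13.5 to 55.9) and 18.4 (5.02 to 47.2) CPM in exosomes nevertheless lay above its 0.550 (0.238 to 1.08) and 0.461 (0.150 to 1.08) CPM in tumour. Mir181d, 85 bases from it on the same strand (chromosome 8, 84178716 to 84178787), had 0 and 1 counts in exosomes and 0 and 0 in tumour.

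Mir181b-1 (chromosome 1, 137966639 to 137966718) and Mir181b-2 (chromosome 2, 38853830 to 38853918) had no count in any library. A count of 0 allows up to 9.81 and 13.8 CPM in the exosome libraries, against 0.206 and 0.277 CPM in tumour. Mir181b-1 begins 97 bases after Mir181a-1, which had 799 counts over the 4 libraries, and Mir181b-2 begins 1019 bases after Mir181a-2, which had 109. The 3 miR-181 loci with counts in all libraries have AC at bases 9 and 10 of the 5p arm, and the 3 with 0 or 1 count in all have UU there. The Mir181a copies share a 5p sequence and so do the Mir181b copies, so these loci are not separate cases. The pattern was seen in these same counts and was not tested. The annotated genes that contain the 8 loci had almost no counts of their own. Hoxd3 and Gm4258 had none, and A430106G13Rik, Hoxd4, Nr6a1 and Nanos3 had 1, 1, 3 and 1 counts over the 4 libraries.

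**Figure D1:**
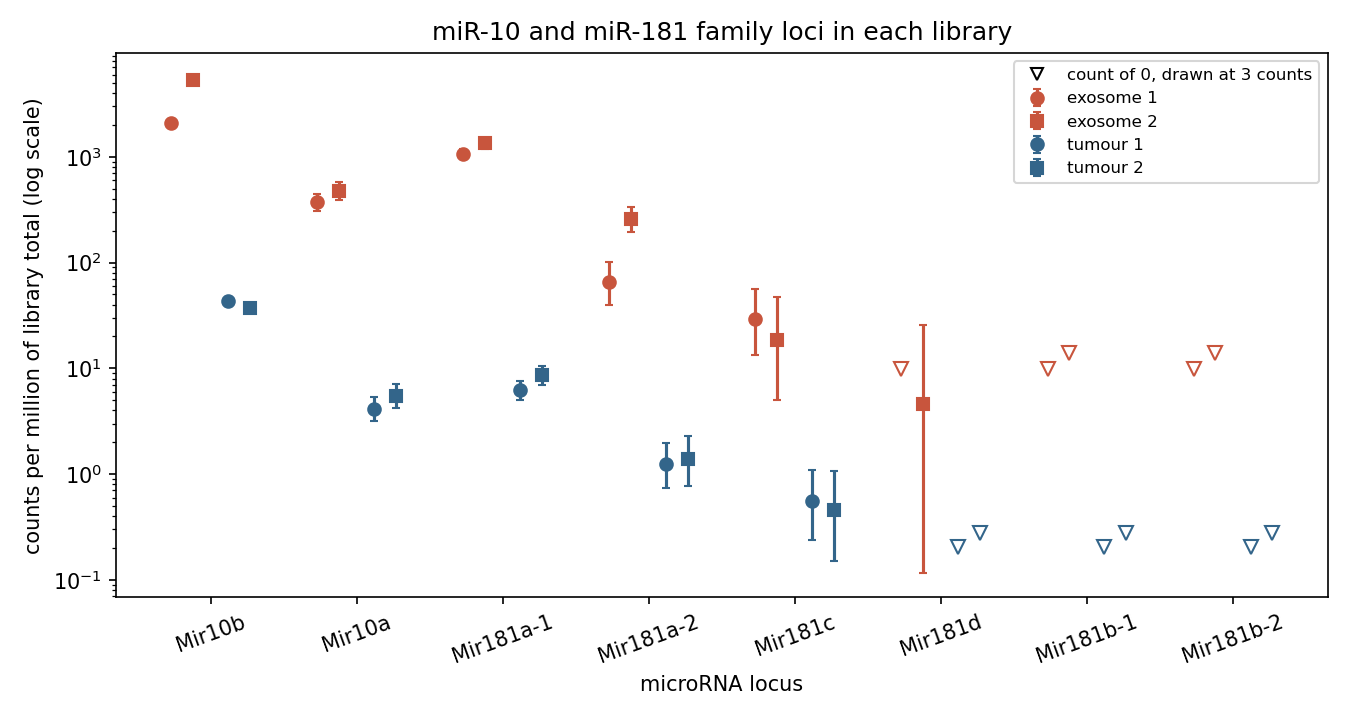
CPM (log axis) for each of the 8 loci, with circles for replicate 1, squares for replicate 2 and exact 95% binomial intervals as bars. Open triangles mark a count of 0, drawn at 3 counts. For the 5 loci with counts in all libraries, both exosome points lie above both tumour points, and the Mir181b loci show triangles alone.

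Levels of different loci were compared per length, as the authors' FPKM, which scales counts to gene length and library total. That length is of the annotated hairpin, 68 bases for Mir10b, 110 for Mir10a and 76 for Mir181a-2. It is not the length of the mature arm, so the gaps between loci differ from those in CPM. In exosomes the order was Mir10b with 54120 ± 33280 FPKM (SD, n = 2), Mir181a-1 with 13790 ± 2276, Mir10a with 3871 ± 681, Mir181a-2 with 2127 ± 1790 and Mir181c with 269 ± 87.6. In tumour it was again Mir10b with 592 ± 63.3 FPKM, Mir181a-1 with 85.4 ± 20.1, Mir10a with 43.9 ± 9.03, Mir181a-2 with 17.2 ± 1.35 and Mir181c with 5.68 ± 0.709. Both groups therefore gave the same order. In exosomes Mir10a and Mir181a-2 were closer to each other in FPKM than the SD of Mir181a-2. In CPM, with means of 425.8 and 161.6, they were further apart than its SD of 136.1. Among the microRNA loci of a library, Mir10b ranked 1 in FPKM in both exosome libraries and 2 in both tumour libraries, behind Mir5099. Mir181a-1 ranked 2 and 2 in exosomes against 9 and 9 in tumour, and Mir10a ranked 4 and 5 against 12 and 12. Among all genes Mir10b ranked 33 and 23 in exosomes, against 148 and 149 in tumour.

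The 8 loci held most of the microRNA locus counts of exosomes and a small part of those of tumour. Their share was 63.4% (61.1% to 65.7%) and 66.0% (64.0% to 67.9%) in exosomes, against 6.26% (5.85% to 6.69%) and 6.68% (6.17% to 7.23%) in tumour. Mir10b alone took 36.6% and 47.2% in exosomes, against 4.89% and 4.67% in tumour, and Mir181a-1 took 18.6% and 12.0% against 0.699% and 1.09%. Mir5099 had 1 and 0 counts in exosomes, while in tumour it held 78.9% and 76.6% of the microRNA locus counts. With Mir5099 left out, a choice made after its values were seen, the share of the 8 loci was 63.4% and 66.0% in exosomes against 29.6% and 28.6% in tumour. Set against 100 counts of all remaining microRNA loci, the 8 loci had 173 and 194 counts in exosomes and 42.0 and 40.0 in tumour. On this scale Mir181a-1 had 50.9 and 35.2 counts in exosomes against 4.69 and 6.51 in tumour, and Mir181c had 1.42 (0.644 to 2.70) and 0.484 (0.131 to 1.24) against 0.417 (0.180 to 0.824) and 0.346 (0.112 to 0.810). On this scale, which needs no scaling factor, the groups did not overlap for Mir10b, Mir10a, Mir181a-1 or Mir181a-2. Some other microRNA loci separated on it as well. Mir16-2 was higher in exosomes, with 62 and 94 counts against 37 and 22, and Mir27a lower, with 0 and 0 against 235 and 189. The share of other loci that separated was not computed, so nothing is read from the number of the family loci that did. For Mir181c the groups did not overlap either, but the gap between exosome replicate 2 and tumour replicate 1 was well inside their counting intervals.

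**Figure D2:**
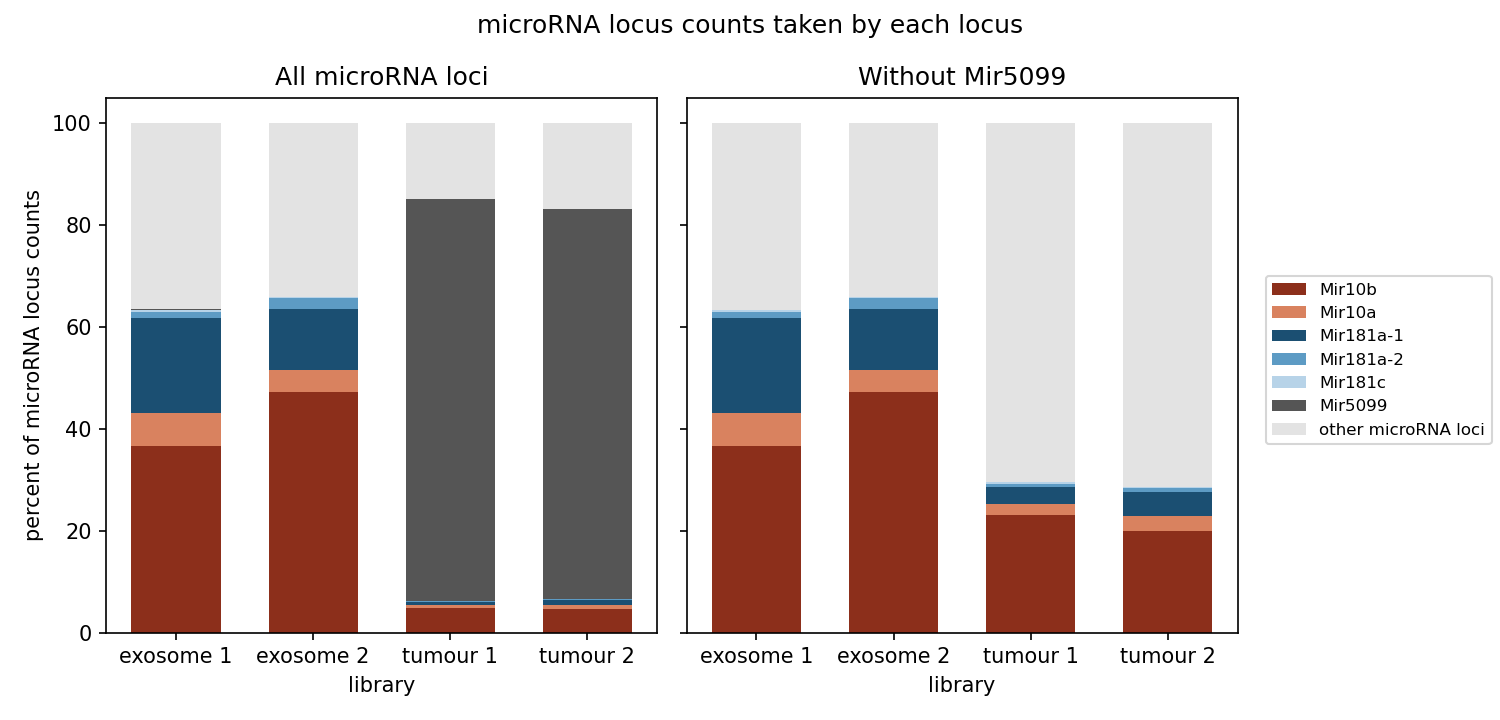
Percent of microRNA locus counts taken by each locus in the 4 libraries, with all microRNA loci on the left and Mir5099 left out on the right. Mir10b and Mir181a-1 fill most of the coloured part in exosomes, while Mir5099 fills 78.9% and 76.6% of the tumour bars on the left.

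Differences between the groups were fitted with edgeR across all 1442 genes with enough counts, using TMM scaling, which sets the typical tested gene near 0. Of the 8 loci, 5 passed the count filter. All 5 were past the threshold on the higher side (edgeR quasi-likelihood test, adjusted p under 0.05), beside a background of 16.0% of all tested genes called higher and 22.1% called lower. Because the loci were chosen with this contrast known, and a scarce locus passes the filter mainly through the group where it is high, nothing is read from that count. The log2 difference, exosomes minus tumour, was 4.54 (SE 0.21) for Mir181a-1, 4.03 (SE 0.55) for Mir181a-2, 3.66 (SE 0.34) for Mir10b, 3.66 (SE 0.21) for Mir10a and 2.78 (SE 0.52) for Mir181c. The median of these was 3.66, and the median of all 1442 tested genes was 0.018. The SE was derived from the F statistic of the test, as the size of the difference over the root of F. Scaling to library totals gave 7.34 for Mir181a-1, 6.86 for Mir181a-2, 6.51 for Mir10b, 6.46 for Mir10a and 5.54 for Mir181c, and moved the median of all tested genes to 2.75. Leaving out a tumour library lowered the log2 differences with TMM scaling for all 4 loci that were still tested. Without tumour replicate 1 they were 2.03 for Mir181a-1, 1.69 for Mir181a-2, 1.5 for Mir10b and 1.18 for Mir10a, and without tumour replicate 2 they were 2.58, 1.92, 1.34 and 1.67 in the same order, while Mir181c was not tested. Measured from the median of the genes tested in each fit, Mir10b stood at 3.64 with TMM and 3.75 with library totals, and between 2.82 without tumour replicate 1 and 4.90 with limma on log2(FPKM + 1) over all alternatives. Mir181a-1 stood at 4.52 and 4.59, and between 3.35 and 5.86 in those same fits.

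Many other microRNA loci were also higher in exosomes. Of 38 others tested, 28 were called higher and 7 lower with TMM, with a median log2 difference of 2.59, and 32 were called higher and 2 lower with library totals, with a median of 5.36. Mir10b and Mir10a had 8 of the other loci above them. Mir181a-1 had 4 above it, each with far fewer counts. These were Mirlet7c-1 at 5.28 (SE 0.52), Mir146b at 5.14 (SE 0.66), Mir16-1 at 4.79 (SE 0.48) and Mir221 at 4.61 (SE 0.47). Their gaps to Mir181a-1 were not tested.

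**Figure D3:**
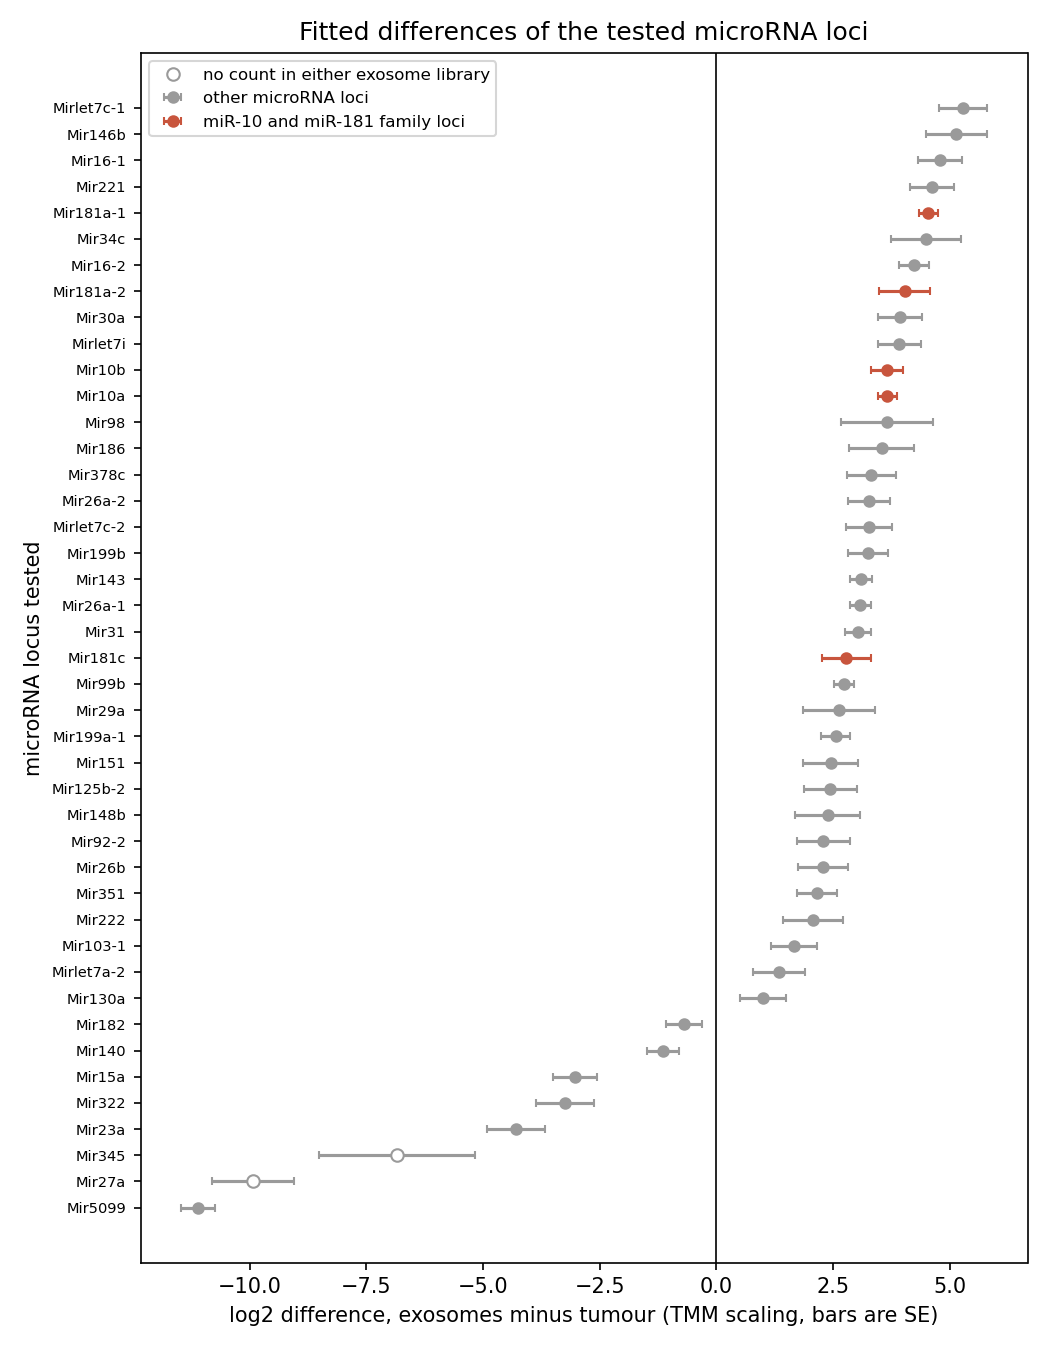
Fitted log2 difference, exosomes minus tumour, for the 43 tested microRNA loci with TMM scaling, ordered by value, with bars of 1 SE. The 5 loci of the miR-10 and miR-181 families lie between 2.78 and 4.54, inside the range of the other loci, and open points mark loci with no exosome count, whose fitted value sets no rank.

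Ratios between loci within a library do not depend on scaling, and they show where the family members moved together. They are per length of the annotated hairpin, and the shorter hairpin of Mir10b makes its ratio to Mir10a larger than that of the counts. Mir10b stood to Mir10a at 9.02 (7.38 to 11.1) and 17.8 (14.6 to 22.0) in exosomes. In tumour this ratio was 17.0 (13.0 to 22.5) and 10.9 (8.29 to 14.5). The groups overlapped, so that no shift between the miR-10 loci was seen beyond the spread of replicates. Mir181a-1 stood to Mir181a-2 at 14.2 (9.01 to 23.5) and 4.54 (3.40 to 6.16) in exosomes, against 4.37 (2.61 to 7.70) and 5.47 (3.16 to 10.2) in tumour, again with overlap. The ratio of Mir181a-1 to Mir181c was 36.8 and 74.4 in exosomes against 11.5 and 19.2 in tumour. These groups did not overlap, but every one of the intervals was wide because Mir181c had at most 9 counts.

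Between the families, Mir10a stood to Mir181a-1 at 0.278 (0.223 to 0.346) and 0.283 (0.224 to 0.355) in exosomes, against 0.527 (0.374 to 0.739) and 0.505 (0.359 to 0.705) in tumour. The replicates of each group nearly coincided, and the intervals of the groups did not meet. Mir10b stood to Mir181a-1 at 2.51 and 5.04 in exosomes, against 8.96 and 5.50 in tumour, where exosome replicate 2 and tumour replicate 2 lay within each other's intervals. These ratios are given without a test, since 2 libraries a group are too few for a permutation test at 0.05.

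**Figure D4:**
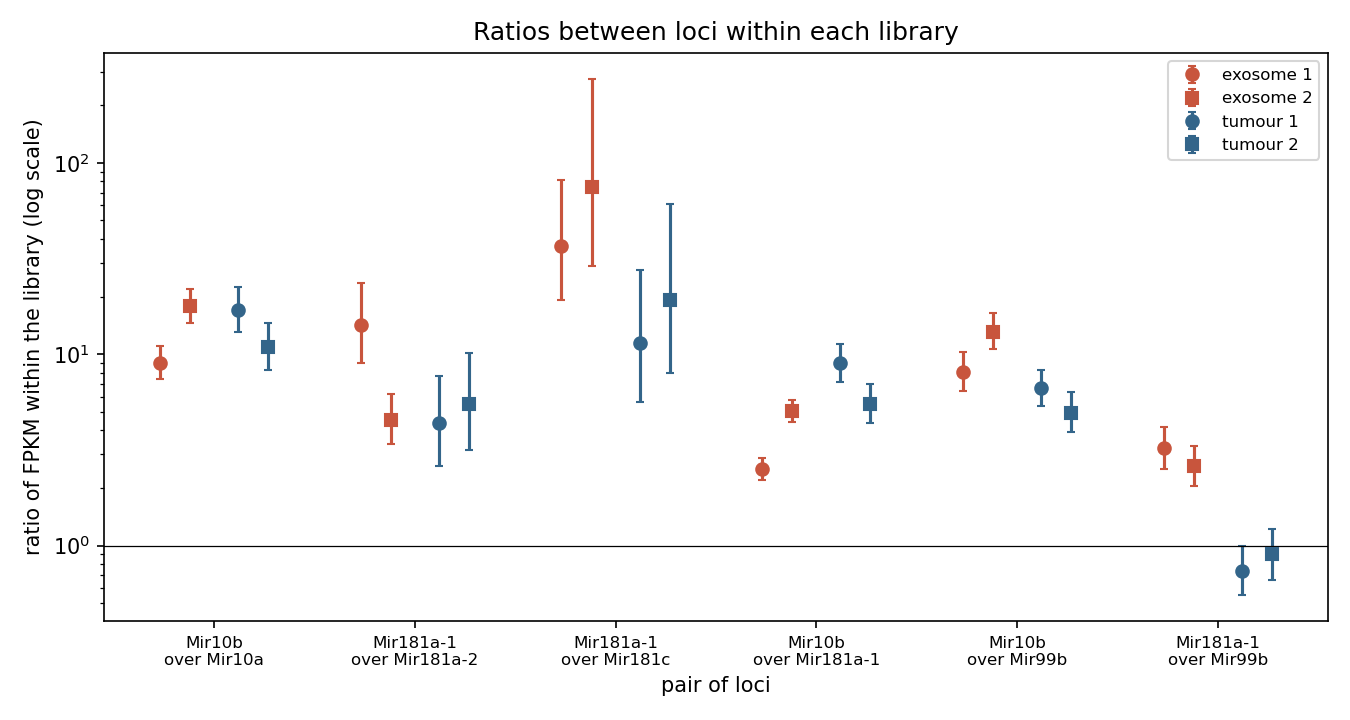
Ratio of FPKM between pairs of loci within each library (log axis), with exact 95% binomial intervals carried over from the counts, exosome libraries in red and tumour libraries in blue. The pairs Mir10b over Mir10a and Mir181a-1 over Mir181a-2 overlap between the groups, while Mir181a-1 over Mir99b is 3.22 and 2.60 in exosomes against 0.739 and 0.900 in tumour.

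Relatives and neighbours of these loci did not all move with them. Of the 9 loci listed, 4 were tested, with 2 called higher and 2 lower. Mir99b, whose seed ACCCGUA is shared with Mir99a and Mir100 but not with miR-10, had 81 and 90 counts in exosomes against 98 and 84 in tumour and rose by 2.73 (SE 0.21, edgeR adjusted p = 1.77e-05). Its difference was 0.35 without tumour replicate 1 and 0.62 without tumour replicate 2. With scaling to microRNA locus totals without Mir5099, called scaling to microRNA loci below, it was 0.11 and was not called. Mir10b stood to Mir99b at 8.08 (6.41 to 10.3) and 13.1 (10.6 to 16.4) in exosomes against 6.62 (5.34 to 8.27) and 4.95 (3.91 to 6.34) in tumour, where exosome replicate 1 and tumour replicate 1 lay within each other's intervals. Mir125b-2, which lies with Mir99a in the host gene Mir99ahg, had 19 and 16 counts in exosomes against 13 and 31 in tumour and rose by 2.44 (SE 0.57, edgeR adjusted p = 0.0111). It turned to −0.51 without tumour replicate 1 and to −0.17 with scaling to microRNA loci, and its call was lost without tumour replicate 2 (1.22) and with DESeq2 (1.61). Mir100 had 6 and 3 counts in exosomes against 2 and 3 in tumour and was not tested, Mir99a had 1 count in all, and Mir125a, Mir125b-1 and Mir24-2 had none.

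The cluster of Mir23a and Mir27a lies 29556 bases from Mir181c on chromosome 8, on the other strand. Mir27a had no count in exosomes against 235 and 189 in tumour, which against a floor of 3 counts per library makes it at least 10.0-fold lower after TMM scaling and at least 1.42-fold lower by library totals. It was called lower (edgeR adjusted p = 0.00011). Mir23a had 0 and 2 counts in exosomes against 162 and 124 in tumour and fell by 4.30 on the log2 scale with TMM (SE 0.62, edgeR adjusted p = 0.0008). With library totals it stood at −1.55 and was not called (edgeR adjusted p = 0.116), and the ratio of its pooled CPM was 0.340 (0.0409 to 1.24). Its call was also lost with limma on log2(FPKM + 1), at −3.77, and on log2(FPKM + 0.1), at −5.42. Without exosome replicate 2, which held both of its exosome counts, the fitted value was −9.69, which is no bound. With TMM scaling the difference was thus negative for Mir23a and Mir27a and positive, at 2.78, for Mir181c.

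The loci nearest to Mir10b in level over the 4 libraries, by root mean square difference of log2 CPM among 38 candidates, were Mir99b at 2.92, Mir16-2 at 3.74 and Mir143 at 3.87. The same 3 loci were nearest to Mir181a-1, at 1.31, 1.84 and 2.04. Mir16-2 rose by 4.24 (SE 0.32, edgeR adjusted p = 1.51e-05) and Mir143 by 3.10 (SE 0.24, edgeR adjusted p = 1.95e-05). The Mir143 call was lost without tumour replicate 1 (0.72) or 2 (0.96) and with scaling to microRNA loci (0.52). Even the locus nearest to Mir10b lay well below it in every library.

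Most messenger RNAs of the microRNA pathway had too few counts to be tested. Of 14 genes for microRNA processing and Argonaute complexes, 2 were tested and neither was called. These were Ran, which powers precursor export from the nucleus, at 0.95 (SE 0.74, edgeR adjusted p = 0.398), and Tnrc6b, a partner of Argonaute, at −0.52 (SE 0.64, edgeR adjusted p = 0.649). Of 8 RNA-binding proteins tied to vesicle microRNA, 4 were tested and none was called. Syncrip was the nearest to a call at −2.06 (SE 0.69, edgeR adjusted p = 0.0526), with 1 and 1 counts in exosomes against 32 and 28 in tumour. Hnrnpa2b1 had 7 and 0 counts against 58 and 45. With TMM scaling the 4 tested genes had a log2 median of −0.71. The 8 genes summed to 58.9 and 41.4 CPM of library totals in exosomes against 10.1 and 12.6 in tumour. Their direction thus depends on the scaling. Of 17 published targets of miR-10 and miR-181, 3 were tested and none was called. With TMM scaling Nf1 stood at −1.38 (SE 0.89) and Dusp6, a phosphatase lowered by miR-181a in mouse T cells, at −1.09 (SE 0.74). Each had 1 and 1 counts in exosomes, against 16 and 21 in tumour for Nf1 and 20 and 11 for Dusp6. By library totals the 17 targets summed to 45.8 and 27.6 CPM in exosomes against 5.29 and 6.45 in tumour. The direction for the targets thus depends on the scaling. Of 9 host and neighbouring genes in the table none was tested, and together they had 1 and 1 counts in exosomes against 3 and 5 in tumour.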

How the data were processed

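The labels describe total RNA with adaptors ligated to both ends, amplified and size-selected on a gel. Per the file headers, the authors deposited a count and an FPKM for each gene and library. Per the submitters' processing notes, the tools were Cufflinks 2.1.1, Cuffdiff and TopHat2 2.0.9, with the build GRCm38.p4. Not given in the sources used here are the counting tool, the annotation, the strand setting and the handling of reads with several matches, which bears directly on loci with identical mature arms. The deposited counts are whole numbers without normalization.

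Symbols and coordinates came from GENCODE M21 (46488 IDs matched). A microRNA locus is one with a microRNA symbol and biotype, which leaves out Mir3096, annotated as a small nucleolar RNA. Mature sequences of all 8 loci, and hairpins where given, came from RefSeq.

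The test on counts was that of edgeR 4.0.16 (R 4.3.3, TMM, filterByExpr with minimum count 10 and minimum total 15, 1.79 CPM in at least 2 libraries, two-sided quasi-likelihood test, Benjamini-Hochberg at 0.05), with group as the only term. The procedure was tested on simulated data in which most genes were set equal between the groups, so that test does not bear on the choice of scaling. Alternatives were library totals, median-of-ratios scaling, DESeq2 1.42.0, each library left out, a replicate block, 2 other filters, limma 3.58.1 on log2 FPKM with pseudocounts of 1 and 0.1 for genes with mean FPKM of at least 1, and both Mir181a and both Mir181b loci summed. Scaling to microRNA loci was added after seeing the data. It used the microRNA locus total of each library without Mir5099 and with the 8 loci kept in. Its filter was at least 10 counts in at least 2 libraries. The families and gene lists were chosen with earlier results of these data known. Named genes were the 8 loci, related loci with a count, called or leading list members, and the 3 microRNA loci nearest in level to Mir10b and to Mir181a-1; the 4 loci above Mir181a-1 and Mir5099 were chosen after their values were seen. The value of 1 tested gene on the target list is not reported here.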

Additional observations from a re-analysis of the deposited data

How the results depend on the processing

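The log2 differences of the tested loci were positive under every alternative that gave a value. They ranged from 0.96 to 6.51 for Mir10b, 1.07 to 6.46 for Mir10a and 1.95 to 7.34 for Mir181a-1 over 14 alternatives, from 1.34 to 6.86 for Mir181a-2 over 13, and from 1.62 to 5.54 for Mir181c over 10, with the lowest values from scaling to microRNA loci, or from no filter for Mir181c, and those without a tumour library next lowest for the other 4. The number of the 8 loci past the threshold was 5, and 3 to 5 with 1 library left out. The loci were chosen on this contrast, so nothing is read from these numbers. Leaving out a tumour library raises the count filter to the depth of exosome libraries, and 394 or 397 genes were then tested.

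Counts over all genes moved with scaling. The 230 genes called higher and 318 lower became 920 and 166 with library totals, 86 and 995 with scaling to microRNA loci, 494 and 204 with limma on log2(FPKM + 1), and 661 higher with limma on log2(FPKM + 0.1). With no filter 610 were lower. With 1 library left out they ranged from 82 to 190 higher and from 190 to 319 lower. Mir125b-2 ranged from −0.51 to 2.50 with 1 library left out and turned to −0.17 with scaling to microRNA loci. Hba-a1 and Hba-a2, at −1.08 and −1.04, turned to 1.72 and 1.74 with library totals, 1.66 and 1.72 with limma on log2(FPKM + 1) and 1.71 and 1.76 on log2(FPKM + 0.1), and were not called at −0.63 and −0.60 with at least 10 counts in at least 2 libraries. The share of the 8 loci among microRNA locus counts, 64.7% in exosomes and 6.47% in tumour, became 38.9% and 29.1% when the leading locus of each library was left out (Mir10b in exosomes, Mir5099 in tumour), and the tumour share was 29.1% without Mir5099.

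The replicate numbers are not said to pair the libraries, and deviations of same-numbered libraries had a correlation of −0.0197 over 1442 genes. With a replicate block 244 genes were higher and 345 lower. Exosome depth limits the scarce loci most, since the mean tumour level of Mir181c corresponds to 0.132 counts in an exosome library.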
